A study of Mus musculus with 6 samples.

Results

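The 10 genes described here encode 9 chemokines (Ccl2, Ccl7, Ccl5, Ccl20, Cxcl1, Cxcl5, Cxcl10, Cxcl12 and Cxcl16) and colony stimulating factor 1 (Csf1). They were chosen by name from the 23449 genes of the deposited table, and each has 1 row, all of them protein coding. The table holds read counts from messenger RNA sequencing of 6 cultured mouse mammary cell lines, 3 of the 16IC kind (16IC_1984, 16IC_4982 and 16IC_7391) and 3 of the EIC kind (EIC_4026, EIC_NT and EIC_7559). The 16IC lines carry the genotype 16IC/WT and the EIC lines the genotype EIC/WT. All 6 are female lines of the FVB/N strain, and the labels give each of them doxycycline at 10 µg/mL. The medium held 10% serum with pituitary extract, EGF and insulin added. As general knowledge of these models that the labels do not state, 16IC is an inducible HER2 splice form without exon 16, and EIC is the inducible wild-type receptor. The labels state neither the promoter behind the transgenes, nor the animals the lines came from, nor whether a line is 1 clone, nor what NT means. All 6 lines had doxycycline, so the receptor form and any other trait that differs between the 2 sets of lines cannot be told apart. The p-values below measure the spread between these 6 samples and treat each line as independent, which the labels do not state.

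Chemokines are small secreted proteins that bind receptors on leukocytes and draw them along a gradient. CC chemokines such as Ccl2 and Ccl7 attract monocytes. CXC chemokines that carry the ELR motif, such as Cxcl1 and Cxcl5, attract neutrophils, and Cxcl10 attracts activated T cells and NK cells. Csf1 sustains macrophages. In mammary tumours these genes are among the signals through which tumour cells set the mix of immune cells around them. Many of them are switched on by NF-κB, a factor activated by inflammatory cytokines and by receptors of microbial products, and Cxcl10 also by interferon.

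The transcripts split into 3 patterns. Cxcl16 was higher in every 16IC line than in every EIC line, by 14.4-fold between the group means. Ccl7 and Cxcl10 were lower in every 16IC line, Cxcl10 by 5.01-fold between the means. The other 7 members overlapped between the groups, and for Ccl2, Cxcl5 and Csf1 much of the spread lay between 16IC_7391 and the other two 16IC lines. Of the 9 members that passed the filter on low counts, 3 had groups that did not overlap, where 31.4% of the 13698 tested genes did so. EdgeR's quasi-likelihood test, adjusted after Benjamini and Hochberg, called 0 of the 9 at an adjusted p of 0.05 over all genes, where it called 2.45% of genes. The same test gave 3 members an unadjusted p under 0.05, where 22.7% of genes had one. With the same 6 lines limma-voom called 0 members, where it called 2.1% of genes. DESeq2 called 3, Cxcl16, Cxcl10 and Ccl7, where it called 15.3% of genes. In the authors' deposited table the same 3 have an adjusted p under 0.05, as do 8.63% of its 23449 genes. That share includes genes left out by the filter on low counts, so it is not over the same genes as the others.

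Promoter sequences are shown for 4 members, because each holds letters that match a site of the factors named above. The RefSeq table of promoters (GRCm38.p6) matched 5 of the 10 members, Ccl20, Csf1, Cxcl1, Cxcl10 and Cxcl12. Ccl2, Ccl7, Ccl5, Cxcl5 and Cxcl16 had no entry. Each run ends at the base before the gene's RefSeq start, 5′ to 3′ on the gene's own strand, and capitals mark matches to a motif.

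Cxcl10, chr5:92348890-92349109, minus strand: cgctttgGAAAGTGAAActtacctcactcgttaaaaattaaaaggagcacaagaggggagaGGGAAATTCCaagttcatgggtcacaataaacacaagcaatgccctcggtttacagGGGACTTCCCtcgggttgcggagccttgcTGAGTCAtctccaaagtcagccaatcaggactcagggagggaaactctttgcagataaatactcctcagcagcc
Cxcl1, chr5:90891145-90891244, plus strand: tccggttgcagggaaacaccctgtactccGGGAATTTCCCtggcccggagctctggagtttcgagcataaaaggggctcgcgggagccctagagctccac
Ccl20, chr1:83116666-83116765, plus strand: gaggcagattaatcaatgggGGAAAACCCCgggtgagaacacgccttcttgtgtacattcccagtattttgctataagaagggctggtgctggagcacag
Csf1, chr3:107760470-107760629, minus strand: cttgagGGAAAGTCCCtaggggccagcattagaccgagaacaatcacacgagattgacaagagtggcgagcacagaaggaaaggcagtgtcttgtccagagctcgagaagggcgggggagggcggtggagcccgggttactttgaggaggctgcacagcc

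The 250 bases before each start were searched on both strands for 4 motifs. These were the κB consensus, the core of the interferon-stimulated response element (GAAA, any 2 bases, then GAAA), the AP-1 site (TGANTCA) and the TATA box (TATAAA). The κB consensus matched in 4 of the 5 members, where it matched in 3.75% of 27025 promoters. Its matches began 159 and 103 bases before the Cxcl10 start, 80 before that of Ccl20, 154 before that of Csf1, and 71 and 70 before that of Cxcl1, where the 2 matches overlap. The interferon-response core matched in Cxcl10 alone of these 5, 213 bases before its start, and in 3.04% of promoters. AP-1 also matched in Cxcl10 alone, 74 bases before the start, and in 6.87% of promoters. Neither Cxcl12 nor any other of the 5 held the TATA box letters in this window, which 13.0% of promoters hold. The matches do not overlap those of another motif, and a match describes letters only.

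Levels between lines are CPM, which is the count scaled to a common library size with TMM factors, and fold changes are 16IC over EIC. Library totals ran from 15621563 to 16091846 counts in 16IC and from 16742109 to 17468498 in EIC. The 16IC_7391 line stood apart from its group, with a Spearman correlation of log2 CPM across tested genes of 0.874 and 0.880 with the other 16IC lines, which reached 0.989 with each other. Its correlation with EIC_4026, EIC_NT and EIC_7559 was 0.885, 0.871 and 0.883. By this measure 16IC_7391 was no closer to its own group than to the EIC lines. EIC_NT reached 0.925 and 0.917 with the other EIC lines, which reached 0.979 with each other. The tests count 16IC_1984 and 16IC_4982 as separate lines despite their likeness. With those lines averaged edgeR called 0 genes, as it did without 16IC_4982, EIC_4026 or EIC_7559. The keratin genes Krt8 and Krt18 were expressed in all 6 lines, Krt8 at 580 to 2652 CPM in 16IC and 1349 to 1929 CPM in EIC. The epithelial adhesion gene Epcam was at 51.1 to 1345 CPM in 16IC and 0.456 to 3.79 CPM in EIC. All 11 epithelial markers together summed to 1837 to 12285 CPM in 16IC and 2613 to 3741 CPM in EIC. Single keratins differed in direction: the basal keratin Krt14 had 217, 21 and 17 counts in 16IC_1984, 16IC_4982 and 16IC_7391, against 1, 2 and 1 in EIC_4026, EIC_NT and EIC_7559, and Krt19 had 0, 0 and 10 counts in the same 16IC lines, against 135, 3285 and 163 in the same EIC lines. The basal keratin Krt5 had at most 1 count in any line. Of 14 leukocyte markers 8 had a row. Their sum was 84.8 to 372 CPM in 16IC and 74.8 to 220 CPM in EIC, nearly all of it Cd14 and Cd68, while Ptprc, which marks leukocytes, had 0 to 5 counts per line in 16IC and 0 to 1 in EIC. Of 13 fibroblast markers 10 had a row, summing to 415 to 1175 CPM in 16IC and 670 to 746 CPM in EIC, most of it Fbln2. Within that sum Fbln1 had 0.181, 1.96 and 0.649 CPM in 16IC_1984, 16IC_4982 and 16IC_7391, against 93.2, 81.0 and 180 CPM in EIC_4026, EIC_NT and EIC_7559, while Col1a1 was at 3.13 to 4.99 CPM in 16IC and 0.513 to 1.99 CPM in EIC, and Postn at 2.39 to 8.04 CPM in 16IC and 0 to 1.06 CPM in EIC. The part of these marker differences in the results below was not tested. The 4 of 6 endothelial markers with a row summed to 0.181 to 1.10 CPM in 16IC and 0.241 to 3.82 CPM in EIC. In bulk RNA fewer cells of a kind and less RNA per cell cannot be told apart.

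**Figure D1:**
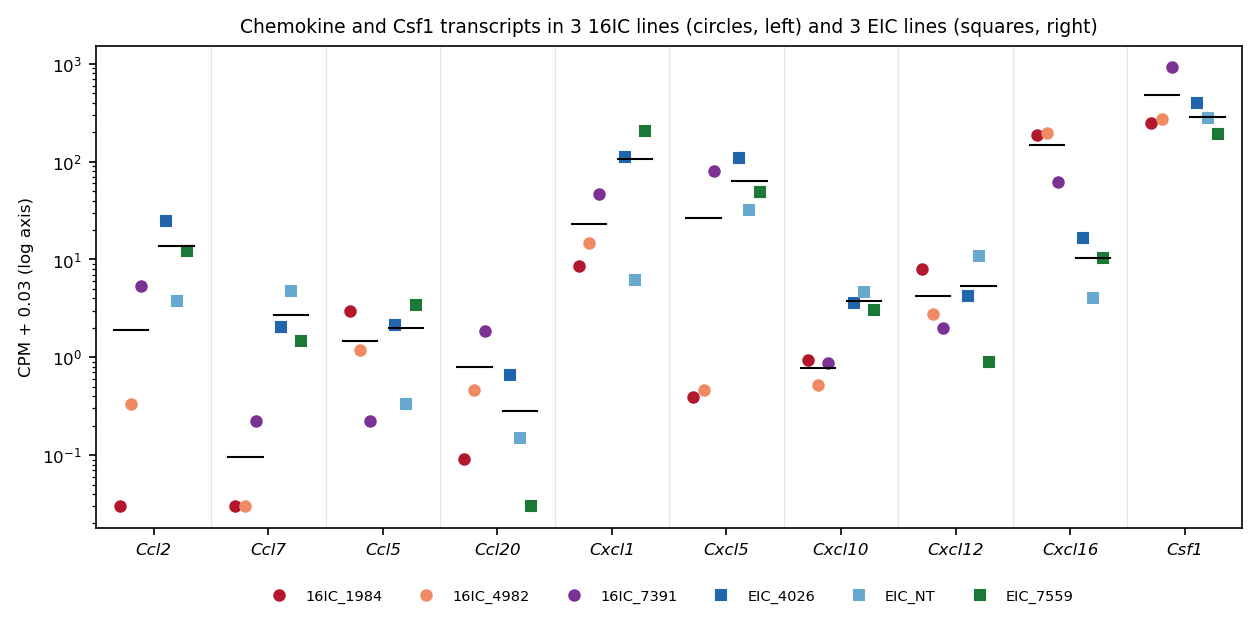
CPM plus 0.03 on a log axis for each of the 10 genes, with 16IC lines as circles on the left, EIC lines as squares on the right and a bar at each group mean (n = 3 lines). Cxcl16, Ccl7 and Cxcl10 do not overlap between the groups, and the purple circle of 16IC_7391 lies far above the other two 16IC lines for Cxcl5 and Ccl2.

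Cxcl16 is made as a transmembrane protein that binds its receptor Cxcr6 on T cells and NKT cells, and it is released by the sheddase Adam10. Its gene (ENSMUSG00000018920) lies on chromosome 11, 70453983 to 70459984 on mm10, minus strand. Cxcl16 had 189, 196 and 61.7 CPM in 16IC_1984, 16IC_4982 and 16IC_7391, against 16.5, 3.97 and 10.4 CPM in EIC_4026, EIC_NT and EIC_7559. The lowest 16IC line, 16IC_7391, was above the highest EIC line, EIC_4026. The means were 149 ± 75.7 CPM in the 16IC lines and 10.3 ± 6.29 CPM in the EIC lines (SD, n = 3 each), with a log2 fold change of 3.85 (SE 0.69, 95% interval 2.17 to 5.53). The edgeR quasi-likelihood test gave an adjusted p of 0.0501, just above the threshold. Over the alternatives its adjusted p ran from 1.89e-07 with DESeq2 to 0.191, and it was called in 4 of 14, upper-quartile factors, a filter of 1 CPM in 3 libraries, DESeq2 and the fit without 16IC_7391. The authors' deposited table gives Cxcl16 3.83 on the log2 scale and an adjusted p of 4.81e-07. Zmynd15 shares 552 bases with Cxcl16 on the other strand. It had 146, 108 and 217 counts in 16IC_1984, 16IC_4982 and 16IC_7391, against 41, 2 and 21 in EIC_4026, EIC_NT and EIC_7559. Cxcl16 had 3142, 3204 and 951 counts in the same 16IC lines, against 290, 66 and 168 in EIC. No label says whether counting used strand, so reads in the shared stretch cannot be assigned with certainty. Adam10 transcripts, by contrast with Cxcl16, overlapped between the groups, at 423 ± 38.6 CPM in the 16IC lines and 386 ± 124 CPM in the EIC lines (SD, n = 3 each, log2 fold change 0.13, edgeR adjusted p = 0.815). The sheddase Adam17 was at 154 ± 13.5 CPM in the 16IC lines and 159 ± 34.3 CPM in the EIC lines (SD, n = 3 each). Cxcr6 itself had at most 1 count in a 16IC line and at most 6 in an EIC line.

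Cxcl10 is the interferon-inducible ligand of Cxcr3, and its promoter is the longest run printed above. The gene (ENSMUSG00000034855) lies on chromosome 5, 92346638 to 92348889, minus strand. It had 15, 8 and 13 counts in 16IC_1984, 16IC_4982 and 16IC_7391, or 0.904, 0.490 and 0.843 CPM. The EIC lines EIC_4026, EIC_NT and EIC_7559 had 63, 76 and 49 counts, or 3.59, 4.57 and 3.05 CPM. Each group was narrow, with its highest line 1.85-fold above its lowest in 16IC and 1.5-fold in EIC, the narrowest of the 7 members with a count in every line. The log2 fold change was -2.31 (SE 0.42, 95% interval -3.34 to -1.29), with an edgeR adjusted p of 0.0518. In the 14 alternatives it stayed between -2.48 and -2.09, with an adjusted p of 2.36e-04 to 0.209, and was called in 3: the 1 CPM filter, DESeq2 and the fit without 16IC_7391. The gene Art3, which spans Cxcl10 on the other strand, had at most 6 counts in any line. Of the neighbours of Cxcl10, Cxcl9 had 1, 2 and 20 counts in 16IC_1984, 16IC_4982 and 16IC_7391, against 9, 70 and 3 in EIC_4026, EIC_NT and EIC_7559. Cxcl11 had 0 to 2 counts per line in 16IC and 1 to 7 in EIC. These other ligands of Cxcr3, also known as interferon-inducible, overlapped between the groups.

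Ccl2 and Ccl7 encode monocyte attractants that share the receptor Ccr2. They are neighbours on the plus strand of chromosome 11, at 82035571 to 82037453 (Ccl2, ENSMUSG00000035385) and 82045712 to 82047525 (Ccl7, ENSMUSG00000035373), with 8.26 kb between them. Ccl7 had 0, 0 and 3 counts in 16IC_1984, 16IC_4982 and 16IC_7391, against 35, 78 and 23 in EIC_4026, EIC_NT and EIC_7559. All 3 EIC lines were above all 3 16IC lines, and the gene passed the filter on low counts through the EIC lines alone. Its CPM averaged 0.0649 ± 0.112 in 16IC and 2.71 ± 1.74 in EIC (SD, n = 3 each). From the summed counts of 3 in 16IC and 136 in EIC, scaled for library size, Ccl7 was 43.6-fold lower in 16IC with an exact 95% binomial interval of 14.6 to 214 that covers counting error only. The edgeR log2 fold change was -5.27 (SE 1.19, 95% interval -8.14 to -2.39, adjusted p = 0.0748). Over the alternatives the adjusted p ran from 9.59e-04 to 0.230, and Ccl7 was called with DESeq2 and without 16IC_7391. The authors' deposited table gives Ccl7 an adjusted p of 2.56e-04.

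Ccl2 had 0, 5 and 82 counts in 16IC_1984, 16IC_4982 and 16IC_7391, against 436, 62 and 194 in EIC_4026, EIC_NT and EIC_7559. As CPM these were 0, 0.306 and 5.32 in 16IC, against 24.9, 3.73 and 12.1 in EIC. The value of 16IC_7391 lay above that of EIC_NT, so the groups overlapped, and Ccl2 and Ccl7 did not rank the EIC lines alike: EIC_NT was highest for Ccl7 and lowest for Ccl2. The log2 fold change of Ccl2 was -2.85 (SE 1.63, 95% interval -6.79 to 1.09, edgeR adjusted p = 0.353). Without 16IC_7391 it was -6.41 and called (edgeR adjusted p = 0.0468). In that fit Ccl2 passed the filter on low counts through the EIC lines alone, with 0 and 5 counts in 16IC_1984 and 16IC_4982. The next genes of this cluster, Ccl11 and Ccl8, had 0 counts in all 16IC lines and at most 4 in an EIC line. Ccl2 and Ccl7 are similar in sequence to each other and to other genes of the cluster, and no label says how reads that fit several genes were counted.

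Cxcl1 and Cxcl5 bind Cxcr2 and attract neutrophils. Both lie on the plus strand of chromosome 5, Cxcl5 (ENSMUSG00000029371) at 90759360 to 90761624 and Cxcl1 (ENSMUSG00000029380) at 90891241 to 90893115. Cxcl5 had 0.361, 0.428 and 79.7 CPM in 16IC_1984, 16IC_4982 and 16IC_7391, against 108, 31.8 and 48.7 CPM in EIC_4026, EIC_NT and EIC_7559. The counts behind these were 6, 7 and 1228 in 16IC, against 1893, 528 and 784 in EIC. Only 16IC_1984 and 16IC_4982 were low, and 16IC_7391 lay within the EIC range, 202-fold above the other two by summed counts (exact 95% binomial interval 118 to 380, counting error only). This contrast sets 1 line against 2 and has no test. The comparison of all 16IC with all EIC lines gave a log2 fold change of -1.23 (SE 1.81, 95% interval -5.61 to 3.15, edgeR adjusted p = 0.733). Without 16IC_7391 it was -7.29 (SE 0.80) and called (edgeR adjusted p = 0.0103). In that fit Cxcl5 passed the filter on low counts through the EIC lines alone, with 6 and 7 counts in 16IC_1984 and 16IC_4982.

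Cxcl1 had 8.49, 14.9 and 46.3 CPM in 16IC_1984, 16IC_4982 and 16IC_7391, against 111, 6.08 and 205 CPM in EIC_4026, EIC_NT and EIC_7559. Here the EIC line EIC_NT was the lowest of all 6 lines, 33.8-fold below EIC_7559. The means were 23.2 ± 20.2 CPM in the 16IC lines and 107 ± 99.6 CPM in the EIC lines (SD, n = 3 each), with a log2 fold change of -2.21 (SE 1.20, 95% interval -5.11 to 0.70, edgeR adjusted p = 0.332). No alternative called it. Cxcl2 and Cxcl3, other Cxcr2 ligands of the same cluster, also had their high values in EIC_4026 and EIC_7559. Cxcl2 had 0.241, 1.16 and 2.27 CPM in 16IC_1984, 16IC_4982 and 16IC_7391, against 52.9, 0.241 and 135 CPM in EIC_4026, EIC_NT and EIC_7559. Cxcl3 had 0.120, 0.245 and 1.30 CPM in 16IC_1984, 16IC_4982 and 16IC_7391, against 33.6, 1.02 and 29.9 CPM in EIC_4026, EIC_NT and EIC_7559. Neither passed the edgeR test (adjusted p = 0.153 and 0.114), and DESeq2 called both lower. Between Cxcl5 and Cxcl1, the platelet genes Ppbp and Pf4 and the gene Cxcl15 had at most 8 counts in any line. Cxcl5 was thus high in 4 lines, while Cxcl2 and Cxcl3 were high in EIC_4026 and EIC_7559 only.

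**Figure D2:**
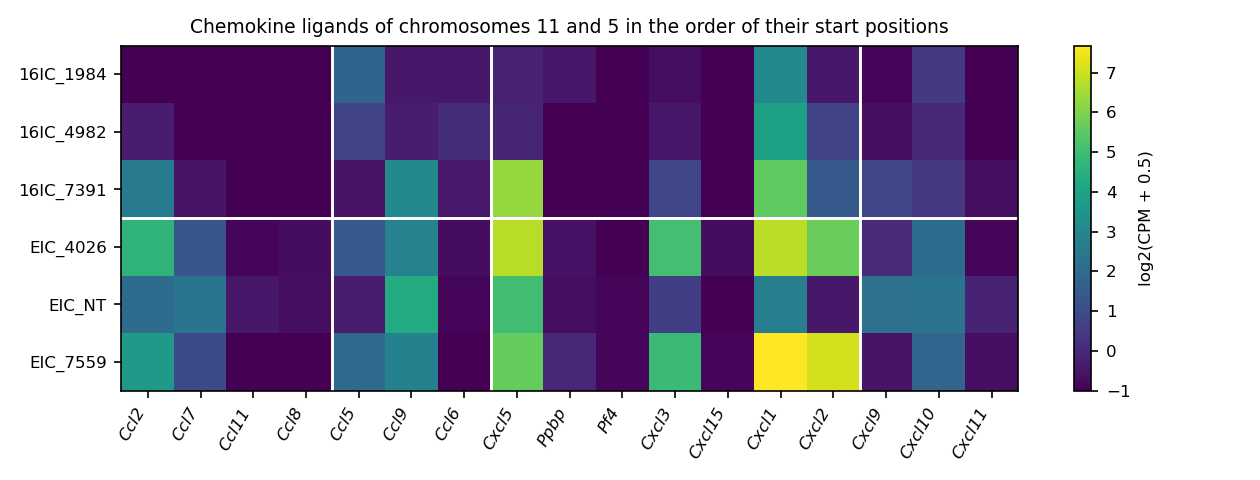
Colour shows log2(CPM + 0.5) of the 17 chemokine ligands in the clusters of chromosomes 11 and 5, in the order of their start positions from left to right, with 16IC lines above EIC lines and vertical white lines between clusters. Cxcl5 is bright in 16IC_7391 and the EIC lines, Cxcl1 is brightest in EIC_7559, and Cxcl2 and Cxcl3 are bright in EIC_4026 and EIC_7559.

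The remaining chemokines were low and uneven within the groups. Ccl5, which attracts T cells and monocytes (ENSMUSG00000035042, chromosome 11, 83525778 to 83530518, minus strand), had 49, 19 and 3 counts in 16IC_1984, 16IC_4982 and 16IC_7391, against 37, 5 and 55 in EIC_4026, EIC_NT and EIC_7559. The groups overlapped throughout, with a log2 fold change of -0.43 (SE 1.10, 95% interval -3.10 to 2.23, edgeR adjusted p = 0.850) whose sign turned without 16IC_7391 (0.08) or without EIC_7559 (0.24). Cxcl12, the Cxcr4 ligand made mainly by stromal cells (ENSMUSG00000061353, chromosome 6, 117168535 to 117181367, plus strand), had 7.89, 2.75 and 1.95 CPM in 16IC_1984, 16IC_4982 and 16IC_7391, against 4.16, 10.9 and 0.870 CPM in EIC_4026, EIC_NT and EIC_7559. The highest and the lowest Cxcl12 values were both in EIC lines. For Cxcl12 the log2 fold change was -0.34 (SE 0.95, 95% interval -2.64 to 1.97, edgeR adjusted p = 0.866), and it turned positive with limma-voom (0.02) and without EIC_NT (0.73). Ccl20, which attracts Ccr6-bearing cells (ENSMUSG00000026166, chromosome 1, 83116766 to 83119167, plus strand), had 1, 7 and 28 counts in 16IC_1984, 16IC_4982 and 16IC_7391, against 11, 2 and 0 in EIC_4026, EIC_NT and EIC_7559. It did not pass the filter on low counts. With no filter Ccl20 differed by 1.52 on the log2 scale (SE 1.43, edgeR adjusted p = 0.581).

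Csf1 binds the receptor Csf1r on monocytes and macrophages. By the authors' FPKM, which allow for gene length, it was the most abundant of the 10 in 16IC_7391, EIC_4026 and EIC_NT. Its gene (ENSMUSG00000014599) lies on chromosome 3, 107741048 to 107760469, minus strand. Csf1 had 249, 272 and 920 CPM in 16IC_1984, 16IC_4982 and 16IC_7391, against 396, 280 and 192 CPM in EIC_4026, EIC_NT and EIC_7559. The 16IC_7391 line was far above the rest, 3.53-fold above the other two 16IC lines by summed counts, and those lay within the EIC range. The means were 480 ± 381 CPM in the 16IC lines and 289 ± 102 CPM in the EIC lines (SD, n = 3 each), and the log2 fold change of 0.73 (SE 0.58, 95% interval -0.68 to 2.14) did not pass the edgeR test (adjusted p = 0.511). Without 16IC_7391 it was -0.15, and no alternative called it. Il34, the other ligand of Csf1r, was at 52.3 ± 10.5 CPM in the 16IC lines and 69.2 ± 25.7 CPM in the EIC lines (SD, n = 3 each, edgeR adjusted p = 0.493). Csf1r itself had 3.73, 4.65 and 0 CPM in 16IC_1984, 16IC_4982 and 16IC_7391, against at most 0.241 CPM in an EIC line.

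**Figure D3:**
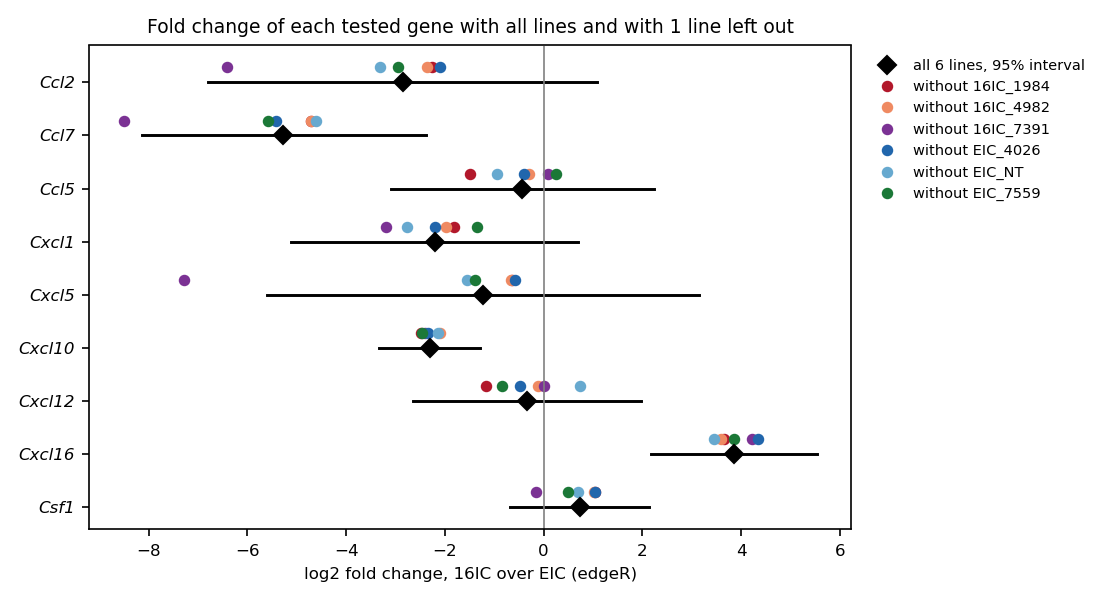
Black diamonds give the edgeR log2 fold change of 16IC over EIC for the 9 tested genes with its 95% interval, and coloured circles give it with the named line left out. Without 16IC_7391 the values of Ccl2 and Cxcl5 move to -6.41 and -7.29, with at most 7 counts per remaining 16IC line. Cxcl10 stays between -2.48 and -2.09 whichever line is left out. The Ccl7 circle without 16IC_7391 rests on 16IC lines with 0 counts and is no bound.

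The line 16IC_7391 thus weighed on several members. It was above both other 16IC lines in 6 of the 10 genes, below both in 3 and between them in Cxcl10. Over all tested genes it lay outside the pair in 89.0%, so the 9 of 10 seen here is near the share of all genes. EIC_NT was the lowest EIC line in 5 members and the highest in 3, where it was the lowest or highest in 78.3% of tested genes. Without 16IC_7391 edgeR called 5 members, Cxcl16 higher and Ccl2, Ccl7, Cxcl5 and Cxcl10 lower, and it then called 13.4% of all tested genes. In that fit Ccl2, Ccl7 and Cxcl5 passed the filter on low counts through the EIC lines alone. The percentage of counts from mitochondrial genes was 2.0, 2.22 and 3.39 in 16IC_1984, 16IC_4982 and 16IC_7391, against 1.5, 0.926 and 1.38 in EIC_4026, EIC_NT and EIC_7559, and its part in these results was not tested.

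Scaled for gene length, the lines had different chemokine repertoires. The authors' FPKM values of 28 rows of chemokine ligands summed to 86.3, 89.5 and 201 in 16IC_1984, 16IC_4982 and 16IC_7391, against 208, 57.6 and 256 in EIC_4026, EIC_NT and EIC_7559. Cxcl16 made up 71.2% of this sum in 16IC_1984 and 70.4% in 16IC_4982. In 16IC_7391 the leading ligand was Cx3cl1, a membrane-bound chemokine that binds Cx3cr1, with 45.4%, followed by Cxcl5 with 21.2% and Cxcl1 with 12.2%. In EIC_4026 Cxcl1 and Cxcl5 led with 27.5% and 26.9%. In EIC_7559 Cxcl1 led with 42.4% and Cxcl2 followed with 25.3%, and in EIC_NT Cxcl5 led with 27.9% and Cx3cl1 followed with 21.9%. Thus a neutrophil attractant led in all 3 EIC lines and in no 16IC line, a count of lines with no test. This ranks ligands within a line and does not compare levels between lines. In 16IC_7391 Cxcl5 and Cxcl1 had 42.6 and 24.6 FPKM, above the 16.1 and 3.06 FPKM of EIC_NT. EIC_4026 had more of both, with 56.2 and 57.3 FPKM. EIC_7559 had less Cxcl5 and more Cxcl1 than 16IC_7391, with 26.0 and 109 FPKM. Among the 10 members, Cxcl16 had 61.5, 63.0 and 20.3 FPKM in 16IC_1984, 16IC_4982 and 16IC_7391 beside Csf1 with 46.2, 50.1 and 174 FPKM in the same lines. In EIC_4026, EIC_NT and EIC_7559 Csf1 had 72.7, 50.0 and 36.2 FPKM, and Cxcl1 exceeded it in EIC_7559 alone, with 109 FPKM. At the low end, Ccl7, Ccl20, Ccl5, Cxcl10 and Cxcl12 stayed under 6 FPKM in every line.

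**Figure D4:**
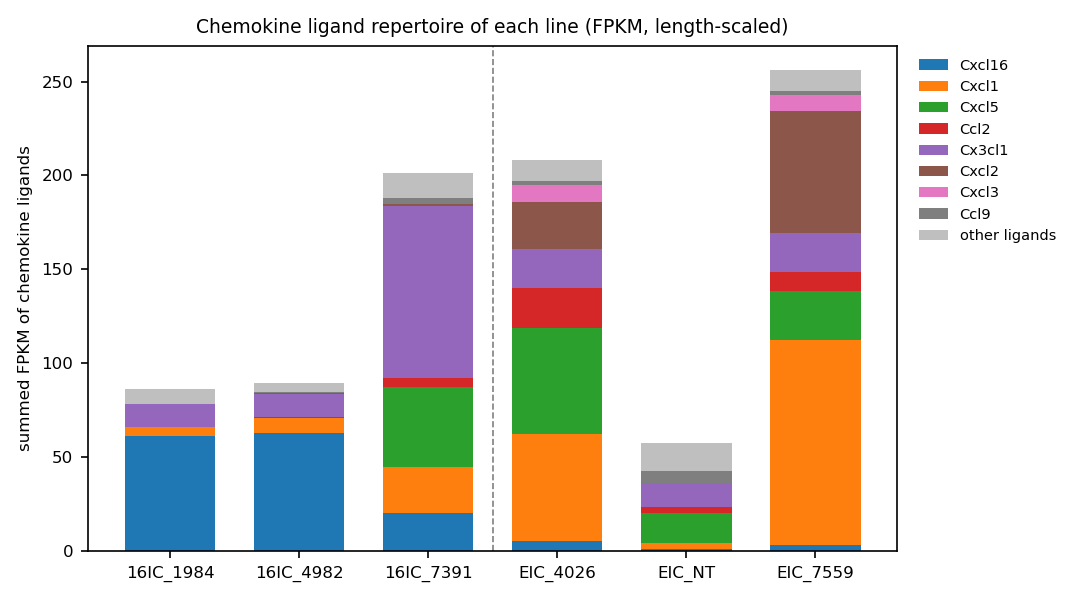
Stacked bars give the FPKM of chemokine ligands in each line, 16IC lines left of the dashed line and EIC lines right of it, with the smaller ligands pooled in grey. Cxcl16 fills most of the bars of 16IC_1984 and 16IC_4982 and little of the EIC bars, where Cxcl1, Cxcl5 and Cxcl2 take more.

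Of 29 other chemokine ligands, 19 rows were in the table and 6 were tested. EdgeR called 0 of them, with 2 at an unadjusted p under 0.05 (Cxcl2 and Cxcl3, both lower), where 22.7% of tested genes had one. Limma-voom called 0, where it called 2.1% of genes, and DESeq2 called these 2, where it called 15.3% of genes. Their median log2 fold change was -0.80, against 0.00 over all tested genes and -1.23 over the 9 tested members. Cx3cl1 had 48.7, 50.6 and 360 CPM in 16IC_1984, 16IC_4982 and 16IC_7391, against 85.2, 52.5 and 81.3 CPM in EIC_4026, EIC_NT and EIC_7559, so that 16IC_7391 alone was high. Ccl25, a chemokine best known from gut and thymus, had 10.4 ± 6.24 CPM in the 16IC lines and 5.37 ± 1.26 CPM in the EIC lines (SD, n = 3 each, edgeR adjusted p = 0.301). Its closest lines were 16IC_1984 with 6.69 CPM and EIC_4026 with 6.67 CPM, and their raw counts of 111 and 117 had the opposite order.

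Among chemokine receptors 6 of 23 were tested, and edgeR called 1, where it called 1.2% of all tested genes lower. Ccr1, a receptor for Ccl5 and Ccl7, fell to 0.241, 0.245 and 0.324 CPM in 16IC_1984, 16IC_4982 and 16IC_7391, against 5.13, 27.2 and 10.2 CPM in EIC_4026, EIC_NT and EIC_7559. With 4, 4 and 5 counts in those 16IC lines, Ccr1 passed the filter on low counts through the EIC lines alone. On the log2 scale Ccr1 differed by -5.68 (SE 0.78, edgeR adjusted p = 0.0370), a call that was lost with limma-voom (adjusted p = 0.0850) and without 16IC_1984, 16IC_4982, EIC_4026 or EIC_7559 (edgeR adjusted p = 0.102 to 0.171). The fits without these lines called 5, 0, 0 and 0 of all tested genes, in that order. The median of the 6 receptors was -1.09. Ackr3, a scavenging receptor for Cxcl12, was at 10.5 ± 4.55 CPM in the 16IC lines and 17.3 ± 3.27 CPM in the EIC lines (SD, n = 3 each, edgeR adjusted p = 0.335). Cxcr4, the signalling receptor for Cxcl12, had 0, 0 and 55 counts in 16IC_1984, 16IC_4982 and 16IC_7391, against 10, 218 and 14 in EIC_4026, EIC_NT and EIC_7559. Ccrl2, which binds the attractant chemerin, had 2.23, 6.12 and 113 CPM in 16IC_1984, 16IC_4982 and 16IC_7391, against 15.2, 7.82 and 26.3 CPM in EIC_4026, EIC_NT and EIC_7559, so that 16IC_7391 alone was high. Cxcr2, the receptor for Cxcl1 and Cxcl5, had under 1 CPM in every line.

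Among other genes of the colony stimulating factor system, 5 of 10 were tested and edgeR called 1, lower, where 1.2% of tested genes were called lower, with a list median log2 fold change of -0.40. Csf2rb, the shared receptor subunit for GM-CSF, IL-3 and IL-5, had 0 counts in all 3 16IC lines, against 73, 118 and 310 counts in EIC_4026, EIC_NT and EIC_7559. It was at least 161-fold lower in 16IC taking 3 counts over all 16IC lines as the floor (edgeR adjusted p = 0.0469), and the list median was the same with Csf2rb at that bound. Csf2rb too passed the filter on low counts through the EIC lines alone. Csf3, which drives neutrophil production, had 902, 887 and 455 counts in 16IC_1984, 16IC_4982 and 16IC_7391, against 488, 0 and 2112 in EIC_4026, EIC_NT and EIC_7559. Kitl, the ligand of Kit, was at 106 ± 74.6 CPM in the 16IC lines and 223 ± 102 CPM in the EIC lines (SD, n = 3 each, edgeR adjusted p = 0.336). The call of Csf2rb was lost in 5 of 6 fits without a line (edgeR adjusted p = 0.0812 to 0.164) and held without 16IC_7391. Among those 5 fits, the fit without EIC_NT called 1.96% of all tested genes and the others at most 0.0351%. Without 16IC_7391 edgeR called 13.4%. Of the chemokine proteases 3 of 7 were tested (Adam10, Adam17 and Mmp14), with a median of -0.04. EdgeR, limma-voom and DESeq2 called 0 of them, and in edgeR 0 had an unadjusted p under 0.05. Mmp14, a membrane protease that can cleave Cxcl12, had 0.301, 3.67 and 240 CPM in 16IC_1984, 16IC_4982 and 16IC_7391, against 129, 470 and 149 CPM in EIC_4026, EIC_NT and EIC_7559.

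Of the 28 NF-κB pathway genes, all tested, edgeR called 3, all higher in 16IC, where 1.25% of tested genes were called higher. The list median was 0.06. The called genes have different roles: Tlr3 senses double-stranded RNA upstream of NF-κB, Ikbke is a kinase related to the IκB kinases, and Tnfaip3 encodes A20, which restrains NF-κB signalling. Tlr3 rose to 127 ± 41.6 CPM in 16IC, against 28.3 ± 2.90 CPM in EIC (SD, n = 3 each, log2 fold change 2.17, edgeR adjusted p = 0.0369). Tnfaip3 rose to 112 ± 25.7 CPM in 16IC, against 28.1 ± 7.79 CPM in EIC (SD, n = 3 each, log2 fold change 1.99, edgeR adjusted p = 0.0390). Ikbke rose to 55.1 ± 8.0 CPM in 16IC, against 23.8 ± 3.19 CPM in EIC (SD, n = 3 each, log2 fold change 1.21, edgeR adjusted p = 0.0461). Each of these 3 calls held without 16IC_7391 and was lost in the other 5 fits without a line (edgeR adjusted p = 0.0559 to 0.185). Without 16IC_7391 edgeR called 13.4% of all tested genes, without EIC_NT 1.96%, and without any other line at most 0.0351%. The subunit gene Rela was at 154 ± 11.9 CPM in the 16IC lines and 146 ± 22.3 CPM in the EIC lines (SD, n = 3 each), and the inhibitor gene Nfkbia, itself an NF-κB target, at 64.5 ± 47.4 CPM in the 16IC lines and 87.7 ± 34.6 CPM in the EIC lines (SD, n = 3 each), without passing the test (edgeR adjusted p = 0.847 and 0.681).

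Of 19 interferon regulators 17 were tested, and edgeR called 2, both lower in 16IC, where 1.2% of tested genes were called lower, with a list median of -0.40. Both are feedback inhibitors of cytokine receptor signalling. Socs3 fell to 14.0 ± 2.39 CPM in 16IC, against 47.9 ± 6.87 CPM in EIC (SD, n = 3 each, log2 fold change -1.78, edgeR adjusted p = 0.0360). Socs1 fell to 3.54 ± 0.952 CPM in 16IC, against 17.9 ± 4.17 CPM in EIC (SD, n = 3 each, log2 fold change -2.33, edgeR adjusted p = 0.0390). Neither call held without 16IC_1984, 16IC_4982, EIC_4026 or EIC_7559 (edgeR adjusted p = 0.139 to 0.171), and that of Socs1 was also lost without EIC_NT (0.0548). Of all tested genes edgeR called 5, 0, 0 and 0 without 16IC_1984, 16IC_4982, EIC_4026 and EIC_7559, so almost no gene kept a call there. Without EIC_NT it called 1.96% of them. Irf7, which drives interferon genes, had 45.1, 33.6 and 160 CPM in 16IC_1984, 16IC_4982 and 16IC_7391, against 225, 120 and 356 CPM in EIC_4026, EIC_NT and EIC_7559 (edgeR adjusted p = 0.255).

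Genes with the most similar pattern over the 6 lines are named as a description, by Pearson's r of log2(CPM + 0.5) among tested genes with a mean of at least 5 CPM. For Cxcl16 these were Myh14, Chmp4c and Nrde2 (r = 0.996, 0.996 and 0.994), out of 207 genes at r of at least 0.95. Myh14, a nonmuscle myosin of epithelia, had 450, 447 and 87.0 CPM in 16IC_1984, 16IC_4982 and 16IC_7391, against 10.2, 0.180 and 4.85 CPM in EIC_4026, EIC_NT and EIC_7559. For Cxcl10 they were Capza1, Gdf11 and Cep85 (r = 0.997, 0.996 and 0.991), and for Ccl7 Pdia4, F13a1 and Ncs1 (r = 0.999, 0.995 and 0.995). For Cxcl5 they were Slc33a1, Cyp26b1 and Galt (r = 0.996, 0.994 and 0.992), of which Cyp26b1, which breaks down retinoic acid, had 0.241, 0.0612 and 36.6 CPM in 16IC_1984, 16IC_4982 and 16IC_7391, against 39.6, 19.8 and 33.6 CPM in EIC_4026, EIC_NT and EIC_7559. For Cxcl1 they were Etnk1, Adarb1 and Ttc26 (r = 0.995, 0.994 and 0.990), for Ccl2 Pgam1-ps2, Dhrs9 and Pgam1 (r = 0.997, 0.994 and 0.992), and for Csf1 Tgfbrap1, Tram2 and Pusl1 (r = 0.977, 0.975 and 0.974). Ccl5 was most like Sfxn2, Tab3 and Coq4 (r = 0.990, 0.971 and 0.964), and Cxcl12 most like Timm22, Exog and Tex30 (r = 0.995, 0.992 and 0.991). With 6 points and so many genes, values this high are found for many genes, and the 6 lines share the group structure. Pearson's r also takes no account of the size of a change. Capza1 had 46.9, 41.2 and 44.5 CPM in 16IC_1984, 16IC_4982 and 16IC_7391. In EIC_4026, EIC_NT and EIC_7559 Capza1 had 61.3, 65.6 and 59.0 CPM, a smaller change than that of Cxcl10.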

How the data were processed

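RNA from 6 cell lines was sequenced after library preparation with the NEBNext Ultra II kit, per the labels' protocols. The submitters' processing notes name the tools STAR, HTSeq, Trimmomatic, limma and edgeR and the builds mm10 and GRCm38, with no version or role. Neither strandedness nor the annotation release is stated there. The deposited table holds whole-number read counts per gene and line. It also holds a deposited normalised signal that is proportional to the counts within each line and was not used here, FPKM values per the file headers, and the authors' log2 fold change, p-value and adjusted p-value, deposited with the tool not stated.

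Starting from the counts, genes were filtered with filterByExpr (minimum count 10), scaled with TMM factors and tested with edgeR 4.0.16 (quasi-likelihood, R 4.3.3), with Benjamini-Hochberg adjustment over all 13698 genes tested and a threshold of 0.05. The SE is the log2 fold change divided by the square root of F, and intervals use the test's degrees of freedom. Alternatives were DESeq2 1.42.0, limma-voom (limma 3.58.1), the robust fit, other size factors, other filters and each line left out. Averaging 16IC_1984 and 16IC_4982 was added after seeing the data. Counting intervals and floors cover counting error only, as no label mentions molecular identifiers. The edgeR test was tested on simulated counts with dispersions fitted to these lines. It recovered 38% of 100 changes of 4-fold and 91% of 100 changes of 16-fold, with 7 false calls. The simulated lines were drawn independently, without the likeness of 16IC_1984 and 16IC_4982 (Spearman 0.989). These rates therefore need not hold for the real lines.

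The members and gene lists were chosen with earlier results of these data known. All members were named. From each other list up to 3 genes with the smallest p and up to 3 with the highest mean FPKM were open to naming, and, for each member with a mean of at least 1 CPM, the 3 tested genes with a mean of at least 5 CPM and the highest r, leaving out predicted models. Neighbouring chemokines, the receptors Cxcr6, Cxcr2 and Csf1r, the overlapping genes and Ptprc, Krt5 and Krt19 were named after their values were seen.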

Additional observations from a re-analysis of the deposited data

How the results depend on the processing

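No paired analysis was possible because the line names pair no 16IC line with an EIC line. Replicates 1 to 3 are 16IC_1984, 16IC_4982 and 16IC_7391, and EIC_4026, EIC_NT and EIC_7559. With all 6 lines edgeR called 335 genes. It called 223 with no filter on low counts, 2098 with DESeq2, 0 with 16IC_1984 and 16IC_4982 averaged, and 0 to 1913 with a line left out, the most without 16IC_7391. Of the members edgeR called 0 with all 6 lines, where it called 2.45% of tested genes. It called 1 with upper-quartile factors (Cxcl16), where 2.5% of genes were called. With the 1 CPM filter it called 2 (Cxcl16 and Cxcl10), where 2.85% of genes were called. DESeq2 called 3, where it called 15.3% of genes. With a line left out edgeR called 0 to 5 members, the most without 16IC_7391, where 13.4% of genes were called. Each of the other fits without a line called 0 members and at most 1.96% of genes.

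Member by member, Cxcl16 was called with upper-quartile factors (3.89), the 1 CPM filter (3.86) and DESeq2 (3.84), Cxcl10 with the 1 CPM filter (-2.30) and DESeq2 (-2.33), and Ccl7 with DESeq2 (-5.42). With a line left out the log2 fold change ran from -6.41 to -2.09 for Ccl2, -8.50 to -4.62 for Ccl7, -1.50 to 0.24 for Ccl5, -3.20 to -1.35 for Cxcl1, -7.29 to -0.59 for Cxcl5, -2.48 to -2.09 for Cxcl10, -1.17 to 0.73 for Cxcl12, 3.46 to 4.35 for Cxcl16 and -0.15 to 1.04 for Csf1. The signs of Ccl5, Cxcl12 and Csf1 turned in some of these fits, without 16IC_7391 or EIC_7559 (Ccl5, 0.08 and 0.24), without EIC_NT (Cxcl12, 0.73, and 0.02 with limma-voom) and without 16IC_7391 (Csf1, -0.15). The value for Ccl7 without 16IC_7391 rests on 16IC lines with 0 counts and depends on the prior count.

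List counts moved too, as did the share of all tested genes called. That share was 2.45% in the main fit, 2.24% in the robust fit, 2.1% in limma-voom and 15.3% in DESeq2. It was 13.4% without 16IC_7391, 1.96% without EIC_NT and at most 0.0351% without any other line. Each list reached its highest count with a line left out in the fit without 16IC_7391, the receptors also without EIC_NT. Other ligands called were 0, with 2 in DESeq2 and 0 to 1 with a line left out. Receptors called were 1, with 0 in limma-voom, 0 with the averaged lines and 0 to 1 with a line left out. The colony stimulating factor system had 1, with 0 in the robust fit, 0 with the averaged lines and 0 to 2 with a line left out. Proteases had 0, and 0 to 1 with a line left out. NF-κB genes had 3, with 0 with the averaged lines and 0 to 6 with a line left out. Interferon regulators had 2, with 4 in DESeq2, 0 with the averaged lines and 0 to 7 with a line left out. The cause of these changes was not tested. Counts of Ccl7, Ccl20, Ccl5 and Cxcl10 were low, and their differences rest on few reads. Ccl2 and Cxcl5 were low in 16IC_1984 and 16IC_4982, so their calls without 16IC_7391 rest on at most 7 counts per 16IC line.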
